A study of Mus musculus with 6 samples.

Results

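Livers of mice on 2 diets were compared for 9 genes of bile duct epithelium and of the ductular reaction, chosen by name: the type II keratin genes Krt7 and Krt8, the type I keratin genes Krt18, Krt19 and Krt23, and Epcam, Cldn4, Sox9 and Cftr. All 9 were found among the 56847 genes of the deposited table, under the Ensembl IDs ENSMUSG00000023039 (Krt7), ENSMUSG00000049382 (Krt8), ENSMUSG00000023043 (Krt18), ENSMUSG00000020911 (Krt19), ENSMUSG00000006777 (Krt23), ENSMUSG00000045394 (Epcam), ENSMUSG00000047501 (Cldn4), ENSMUSG00000000567 (Sox9) and ENSMUSG00000041301 (Cftr). The groups were livers of mice on a normal diet (3 libraries) and livers of mice on CDAHFD (3 libraries), which lacks choline, holds a defined amino acid mix and much fat, and brings on steatohepatitis in mice. The labels give no strain, sex, age, genotype or time on the diet, and do not say that each library is a separate animal, so p-values measure only the spread between these libraries, which may be technical. The study asked about lipid metabolism and mitochondrial pathways, and bile duct epithelium is not among the questions its labels name.

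Cholangiocytes are the epithelial cells that line the bile ducts. They carry the keratins 7 and 19 beside the keratins 8 and 18, which hepatocytes make as well, and keratin filaments always pair a type I with a type II chain. In a ductular reaction, small strings of biliary cells and of intermediate cells spread from the portal tracts of an injured liver, and SOX9, EPCAM and the biliary keratins are the usual markers of these cells.

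Total counts per library ran from 21986215 to 25628531. Of the 9 genes, 8 passed the filter on low counts, and Cftr did not. The labelled tissue was checked by Alb, the albumin gene of hepatocytes, which stood at 92684 to 111049 TPM (a level corrected for gene length and library size) in the 6 libraries. In bulk tissue, fewer or more cells of a type and less or more RNA per cell cannot be told apart.

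Promoter sequence is shown for 4 members: Krt8 and Krt18, which head the list by level and neighbour each other in the RefSeq gene order, Epcam, a surface marker of biliary cells, and Cldn4, the member with the largest fold change. Each is the 250 bases before the gene's start from RefSeq on GRCm38.p6, 5′ to 3′ on the gene's strand. That build differs from the authors' GRCm39. Such windows were found for 7 members, not for Krt19 and Sox9. Capitals mark matches on either strand to any of the motifs searched: TGANTCA (AP-1), GGAATG (TEAD factors), GGGCGG (GC box), AACAAT (SOX factors), TATAAA, and CAGGTG (E2 box, read by the SNAI and ZEB repressors of epithelial genes).
Krt8, chr15:102004343-102004592, minus strand: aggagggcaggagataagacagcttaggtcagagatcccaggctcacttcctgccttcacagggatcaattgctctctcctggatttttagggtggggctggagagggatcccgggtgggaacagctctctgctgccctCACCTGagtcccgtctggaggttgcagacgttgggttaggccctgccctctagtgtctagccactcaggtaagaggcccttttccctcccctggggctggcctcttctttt
Krt18, chr15:102027966-102028215, plus strand: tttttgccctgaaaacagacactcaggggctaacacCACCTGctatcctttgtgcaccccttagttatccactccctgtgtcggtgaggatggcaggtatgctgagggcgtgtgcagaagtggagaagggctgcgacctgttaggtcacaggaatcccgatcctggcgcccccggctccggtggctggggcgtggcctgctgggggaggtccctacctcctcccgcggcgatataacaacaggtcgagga
Epcam, chr17:87635729-87635978, plus strand: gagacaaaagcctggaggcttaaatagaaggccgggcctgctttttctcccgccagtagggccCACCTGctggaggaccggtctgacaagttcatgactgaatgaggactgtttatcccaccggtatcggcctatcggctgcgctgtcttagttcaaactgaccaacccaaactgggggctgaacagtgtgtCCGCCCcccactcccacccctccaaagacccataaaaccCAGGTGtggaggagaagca
Cldn4, chr5:134946935-134947184, minus strand: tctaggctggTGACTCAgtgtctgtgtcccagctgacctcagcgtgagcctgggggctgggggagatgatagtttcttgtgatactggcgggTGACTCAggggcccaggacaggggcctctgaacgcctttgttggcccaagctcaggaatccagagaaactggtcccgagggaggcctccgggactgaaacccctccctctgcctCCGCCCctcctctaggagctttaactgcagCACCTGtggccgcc
The E2 box letters stood in 6 of the 7 windows (Krt7, Krt8, Krt18, Krt23, Epcam and Cldn4) and in 17.2% of 32851 promoter windows of the same length. The GC box stood in 4 of 7 (Krt7, Epcam, Cldn4 and Cftr) against 32.7% of all windows. The AP-1 letters were found in Cldn4 alone, 240 and 158 bases before its start, and in 6.75% of all windows. The letters searched for TEAD factors, SOX factors and TATAAA were in none of the 7. The motifs were chosen with the sequences in view, and a match is a description of the letters only.

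All 8 tested members rose on CDAHFD, by 2.11-fold (Sox9) to 14.3-fold (Cldn4). Cldn4 had fewer than 10 counts in each normal diet library. It therefore passed the filter only through CDAHFD and could hardly have been called lower. In edgeR's quasi-likelihood test, 28.5% of all 14215 tested genes rose at an adjusted p of 0.05, and 18.4% rose at least 2-fold, as each of the 8 did. Their median log2 change was 1.95, against 0.01 over all tested genes. For each of the 9 members, Cftr included, the lowest CDAHFD library lay above the highest normal diet library in CPM (counts relative to the scaled library total), as it did for 32.2% of the tested genes. Levels below are TPM per library, in the order of replicates 1 to 3. Fold changes are from counts scaled by TMM, a scaling that centres most genes near no change, and are therefore smaller than ratios of TPM. Each change is CDAHFD over normal diet, given as log2 ± SE with 3 libraries per diet.

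**Figure D1:**
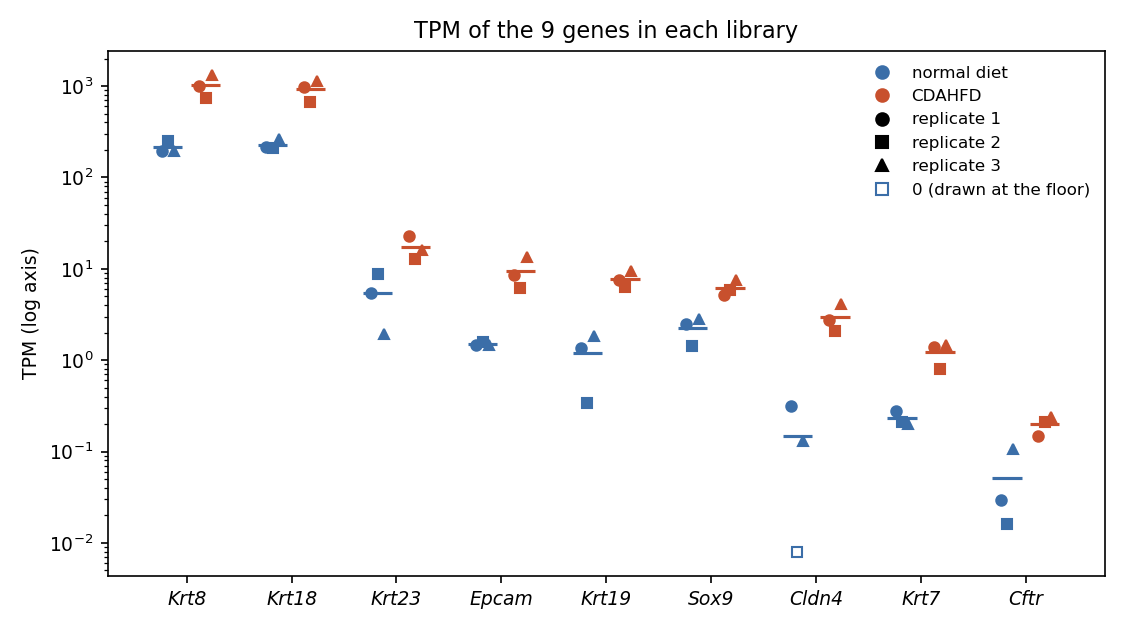
TPM (log axis) of each of the 9 genes in each of the 6 libraries; blue is normal diet, red is CDAHFD, marker shapes are replicates, horizontal lines are means, and the open square is a value of 0 drawn at the floor. Krt8 and Krt18 lie far above the other 7 genes on both diets, and the red points lie above the blue ones for every gene.

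Krt8 and Krt18 encode the keratin pair of all simple epithelia, hepatocytes included. On normal diet Krt8 was at 193, 253 and 194 TPM, and on CDAHFD at 990.4, 743 and 1336 TPM. Each CDAHFD library lay well above each normal diet library. The change was 1.89 ± 0.18 (adjusted p = 6.52e-06, edgeR). Krt18 was at 214, 209.6 and 262 TPM on normal diet and at 971, 677 and 1151 TPM on CDAHFD, and again the groups did not overlap. Its change was 1.65 ± 0.17 (adjusted p = 1.60e-05, edgeR). Together the pair made up 97.3% to 98.2% of the TPM of the 9 genes on normal diet and 97.6% to 97.9% on CDAHFD. By TPM, Krt8 went from the 96.3 to the 99.2 percentile of the tested genes and Krt18 from 96.5 to 99.1.

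Krt7 and Krt19 are the keratins that set bile duct cells apart from hepatocytes. Both were rare transcripts. Krt19 had 22, 5 and 29 counts on normal diet and 109, 108 and 142 on CDAHFD, which is 1.37, 0.338 and 1.84 TPM against 7.49, 6.29 and 9.55 TPM. Normal diet replicate 2 was the low library, and every CDAHFD library was above all of normal diet. The change was 2.31 ± 0.39 (adjusted p = 0.000517, edgeR), and 1.85 without normal diet replicate 2. Krt7 had 17, 12 and 12 counts on normal diet and 78, 52 and 82 on CDAHFD, or 0.279, 0.213 and 0.201 TPM against 1.41, 0.797 and 1.45 TPM. It rose by 2.01 ± 0.32 (adjusted p = 0.00031, edgeR), with CDAHFD replicate 2 the lowest of its diet.

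Krt23 is a type I keratin that is induced in stressed liver. It was at 5.47, 8.73 and 1.96 TPM on normal diet and at 23.04, 13.0 and 16.0 TPM on CDAHFD. The normal diet libraries spread widely, and CDAHFD replicate 1 was the highest of all. It rose by 1.33 ± 0.37 (adjusted p = 0.0101, edgeR). Without normal diet replicate 3 the change was 0.94, and without CDAHFD replicate 1 its adjusted p was 0.0496.

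Epcam encodes a homophilic adhesion molecule of the surface of biliary and progenitor cells. It had 28, 28 and 27 reads in the normal diet libraries, and 148, 124 and 236 in those of CDAHFD. In TPM this was 1.47, 1.60 and 1.45 against 8.59, 6.10 and 13.4. The normal diet libraries were nearly level, and CDAHFD replicate 3 stood above the other two CDAHFD libraries. The change was 2.25 ± 0.28 (adjusted p = 6.12e-05, edgeR). Calm2, a calmodulin gene that precedes it in the RefSeq gene order, did not pass (0.02 ± 0.10, adjusted p = 0.881, edgeR).

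Cldn4 encodes a claudin, a strand protein of tight junctions. It had 5, 0 and 2 counts on normal diet and 39, 35 and 60 on CDAHFD. In TPM the libraries were at 0.318, 0 and 0.130 against 2.74, 2.08 and 4.12. The rise of 3.84 ± 0.58 (adjusted p = 0.000222, edgeR) therefore starts from 7 reads in all, and its size was 4.97 without normal diet replicate 1. Cldn3, its neighbour in the RefSeq gene order, was at 0.73 ± 0.16 (adjusted p = 0.00245, edgeR).

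Sox9 encodes the transcription factor that marks biliary and ductular progenitor cells. It was at 2.52, 1.42 and 2.82 TPM on normal diet and at 5.15, 5.90 and 7.61 TPM on CDAHFD. All CDAHFD libraries were above all normal diet libraries, and normal diet replicate 2 was the lowest of the 6. The rise was the smallest of the 8, 1.08 ± 0.25 (adjusted p = 0.00421, edgeR). Cftr, the chloride channel gene of bile duct secretion, had 2, 1 and 7 counts on normal diet and 9, 15 and 15 on CDAHFD. Its difference on log2(CPM + 0.1) was 1.31, with a two-sided exact permutation p of 0.1, the smallest that 3 against 3 libraries can give. With no filter on low counts edgeR gave 1.56 ± 0.63 (adjusted p = 0.0428), a fit in which 17.7% of 26131 genes rose. The p-values of that fit are not comparable with those of the main one. For Krt8 the adjusted p of edgeR went from 6.52e-06 to 5.42e-45 at nearly the same change (1.89 and 1.90). Cftr also entered 4 of the fits that left out 1 library, and passed in 1 of them, without normal diet replicate 3. That library held 7 of its 10 normal diet reads. It entered these fits only through CDAHFD, so a rise was nearly the only call open to it.

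**Figure D2:**
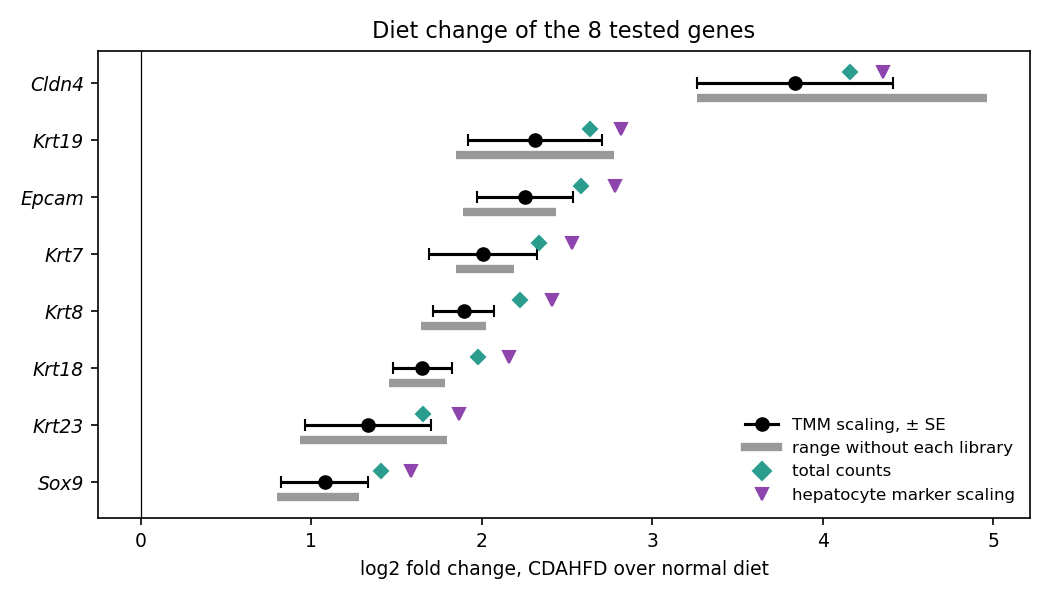
Log2 fold change of the 8 tested genes, CDAHFD over normal diet; black points with bars are TMM-scaled values ± SE, grey bars the range when each library is left out in turn, green diamonds total counts and purple triangles scaling to 8 hepatocyte marker genes. Every value lies above 0, from Sox9 at 1.08 to Cldn4 at 3.84 with TMM.

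On normal diet the order by mean TPM was Krt18, Krt8, Krt23, Sox9, Epcam, Krt19, Krt7, Cldn4 and Cftr. Within it, only the steps from Krt8 to Krt23 and from Krt19 to Krt7 were free of overlap between libraries. On CDAHFD the order was Krt8, Krt18, Krt23, Epcam, Krt19, Sox9, Cldn4, Krt7 and Cftr. There the steps from Krt18 to Krt23, from Sox9 to Cldn4, from Cldn4 to Krt7 and from Krt7 to Cftr were free of overlap. By mean, Sox9 thus went from above Epcam and Krt19 to below them, and Cldn4 passed Krt7. The libraries bear this out in part. Within each library Sox9 lay above Krt19 on normal diet and below it on CDAHFD. But in normal diet replicate 2 Sox9 (1.42 TPM) already lay below Epcam (1.60). In normal diet replicate 1 Cldn4 (0.318 TPM) already lay above Krt7 (0.279).

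Ratios within a library do not depend on the scaling, and 8 of them were compared. Krt8 stood at 0.74 to 1.21 times Krt18 on normal diet and at 1.02 to 1.16 times on CDAHFD. The log2 difference of this ratio was 0.23 (two-sided exact permutation p = 0.4, adjusted over the 8 ratios 0.8). The sum of type II over type I members likewise overlapped, at 0.73 to 1.16 and 0.991 to 1.14. Sox9 over Krt19 stood at 1.84, 4.22 and 1.53 in the normal diet libraries and at 0.687, 0.939 and 0.796 in the CDAHFD libraries. These groups did not overlap, with a log2 difference of -1.51 (exact permutation p = 0.1, adjusted 0.4). Krt19 was 0.64%, 0.161% and 0.705% of Krt18 on normal diet and 0.771%, 0.929% and 0.83% on CDAHFD. That log2 difference of 1.01 had the same exact permutation p of 0.1 (adjusted 0.4), and was 0.32 without normal diet replicate 2. The other 4 ratios overlapped between diets, with exact permutation p of 0.6 to 0.9. With 3 libraries per diet no ratio could reach 0.05.

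**Figure D3:**
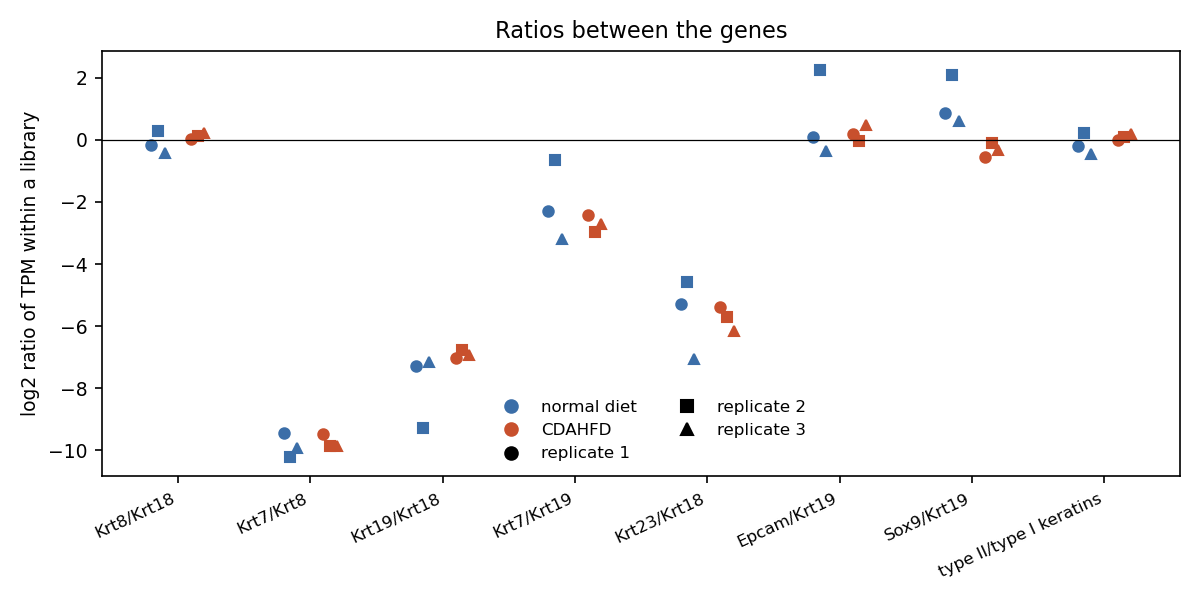
Log2 ratio of TPM between members within each library (0 means equal levels); blue is normal diet, red is CDAHFD, and shapes are replicates. The diets separate for Sox9 over Krt19 and for Krt19 over Krt18 only, and normal diet replicate 2 stands apart in the ratios that hold Krt19.

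Within the CDAHFD group, the members moved together from library to library. CDAHFD replicate 3 had the highest CPM for 7 of the 8 tested members and replicate 2 the lowest for 7, while over all tested genes they were highest and lowest in 36.3% and 33.0% of cases. Among the 35 tested genes of the wider biliary list described below, replicate 3 was highest for 28 and replicate 2 lowest for 23. The summed CPM of the 9 members was 1094 in replicate 1, 830.4 in replicate 2 and 1372 in replicate 3, against 303 to 330.03 on normal diet. Marker sums of other cells differed between these libraries too. T and NK cell genes were highest in CDAHFD replicate 2 (15.6 CPM against 7.78 and 8.81), and hepatocyte genes lowest in replicate 3 (83977 CPM against 91027 and 94662). Stellate cell genes were highest in replicate 3 (483 CPM against 393 and 381). Their part in the spread of the members was not tested.

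**Figure D4:**
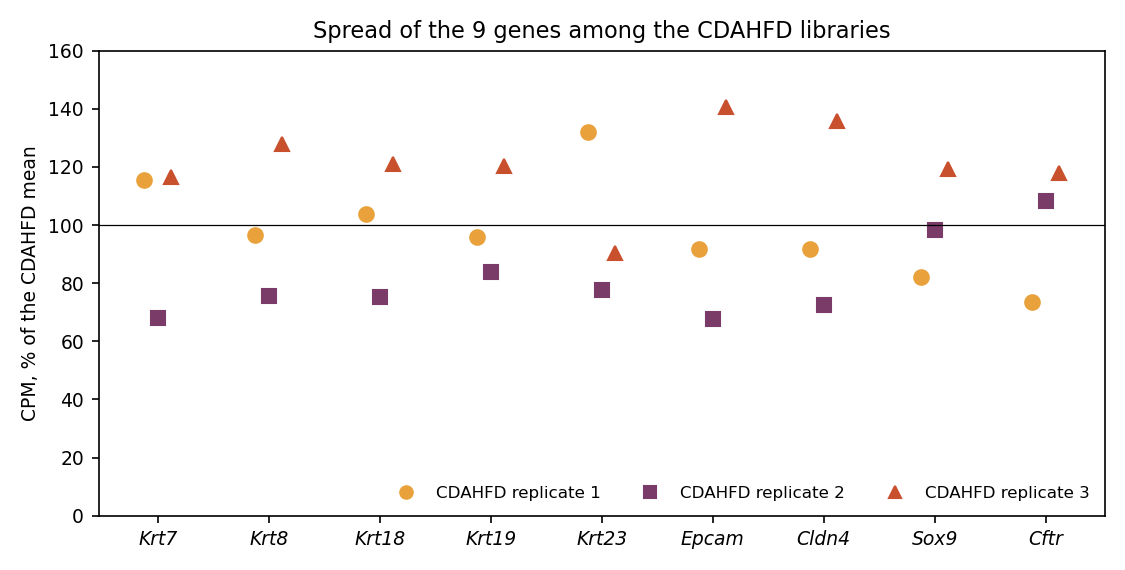
CPM of each of the 9 genes in the 3 CDAHFD libraries, as a percent of that gene's CDAHFD mean (line at 100). Replicate 3 (triangles) is highest for every gene but Krt23, and replicate 2 (squares) is lowest for every gene but Sox9 and Cftr.

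A wider list held 39 other genes of biliary epithelium, of which 35 were tested. With TMM 28 rose, 1 fell (Atp1b1, a sodium pump subunit, at -0.41 ± 0.14) and 6 did not pass, against 28.5% and 23.5% of all genes higher and lower. The list's median change was 1.46. With total counts, and with scaling to hepatocyte markers, 34 rose and 0 fell, and Atp1b1 was at -0.09 and 0.10. Those scalings called 44% and 53.4% of all genes higher, and 8.07% and 4.1% lower. Of the 19 tested genes that few other liver cells express, 17 rose. Of the 16 that other cells express widely, 11 rose. Elf3, Cldn7 and Mmp7, all among the 28 that rose, passed the filter only through CDAHFD. For them a rise was nearly the only call open. The counts of risen genes, here and by role below, are therefore partly set by the filter. Whether the shares of the narrowly and widely expressed genes differ was not tested.

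By role, 4 of 5 tested transcription factor genes rose, beside 28.5% of all tested genes. Elf3, an ETS factor of epithelia, had 2, 3 and 9 counts on normal diet and 45, 44 and 65 on CDAHFD (3.07 ± 0.45, adjusted p = 0.000197, edgeR). The related Ehf, chosen after its values were seen, rose by 2.20 ± 0.33. Onecut1, chosen in the same way, did not pass (0.47 ± 0.30).

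Among 11 tested surface and adhesion genes 10 rose, beside 28.5% of all tested genes. The collagen receptor gene Ddr1 went from 1.70 ± 0.241 to 18.2 ± 4.1 CPM (mean ± SD, n = 3), a change of 3.42 ± 0.21 (adjusted p = 3.13e-07, edgeR). Named after their values were seen, Cd24a rose by 2.36 ± 0.18 and the mucin gene Muc1 by 2.39 ± 0.24, while Dsg2, a desmosomal cadherin gene, did not pass (0.13 ± 0.12). All 3 genes of the matriptase system rose, led by St14, the membrane protease itself, at 2.97 ± 0.38 (adjusted p = 6.58e-05, edgeR) from 27, 10 and 12 counts to 116, 143 and 236. All 5 genes of the primary cilium rose, by 0.36 ± 0.10 (Pkd1) to 2.31 ± 0.21 (Bicc1).

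Of 7 tested ion and water transport genes 3 were higher and 1 lower, beside 28.5% and 23.5% of all tested genes. With so few genes these counts are not set apart from those shares. The water channel gene Aqp1, which endothelium also expresses, did not pass (0.11 ± 0.15), nor did the bicarbonate exchanger gene Slc4a2 (0.06 ± 0.11). The secretin receptor gene Sctr, a defining marker of large duct cholangiocytes, had 0, 1 and 0 counts on normal diet and 1, 5 and 1 on CDAHFD. It was under the filter. Of 4 tested secreted genes 3 rose, and Lcn2, which hepatocytes and neutrophils make as well, went from 70, 47 and 79 counts to 8142, 13247 and 10692 (6.98 ± 0.22, adjusted p = 5.98e-09, edgeR). The 4 neutrophil markers summed to 0.589 to 0.637 CPM on normal diet and 5.31 to 10.8 CPM on CDAHFD, and both that were tested, S100a8 (3.54 ± 0.35) and S100a9 (4.40 ± 0.43), rose. S100a8 had 3, 4 and 5 counts on normal diet and S100a9 had 7, 4 and 5. Both passed the filter only through CDAHFD, so a rise was nearly the only call open to them. The part of neutrophils in the Lcn2 result was not tested.

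**Figure D5:**
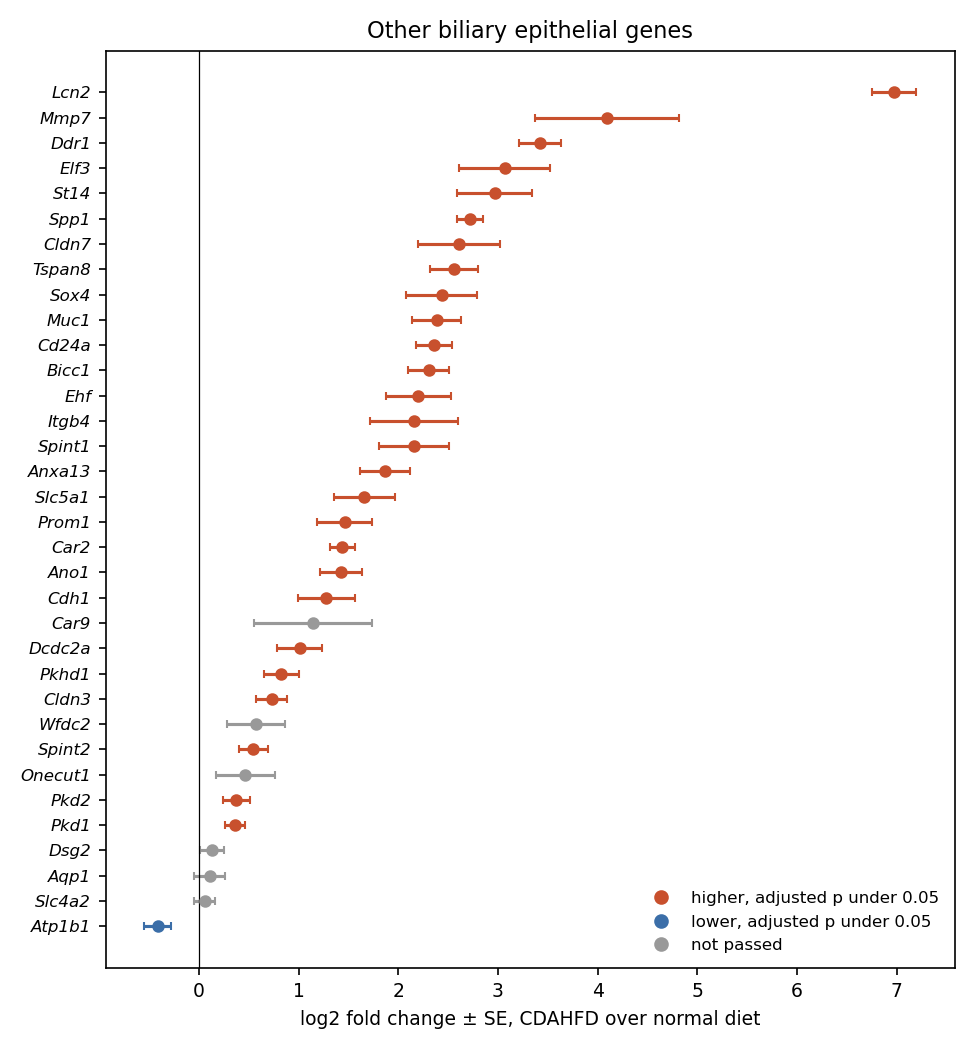
Log2 fold change ± SE, CDAHFD over normal diet, of 34 of the 35 tested genes of the wider biliary list with TMM scaling; red rose, blue fell and grey did not pass an adjusted p of 0.05. Values run from Atp1b1 at -0.41 to Lcn2 at 6.98.

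The other keratin genes were nearly silent. Of 49 further keratin genes in the table, 14 had any count and 2 were tested. Krt80, which neighbours Krt7, rose by 2.49 ± 0.34 (adjusted p = 0.000121, edgeR) from 4, 5 and 7 counts to 36, 41 and 41. Krt10, a keratin of differentiated epidermis, did not pass (-0.38 ± 0.33, adjusted p = 0.356). Between Krt7 and Krt8 the RefSeq order has 22 keratin genes, of which 5 were counted, none above 11 reads over the 6 libraries. Eif4b, the gene on the far side of Krt18, fell by 0.54 ± 0.10.

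Of 9 tested claudin genes besides Cldn4, 6 rose and 1 fell with TMM, against 28.5% and 23.5% of all genes. Cldn7 rose by 2.61 ± 0.41 from 9, 3 and 9 counts, and Cldn1, a claudin of hepatocytes and ducts, by 0.90 ± 0.14. Cldn3 went from 57.2 ± 11.8 to 94.7 ± 13.4 CPM. Cldn3 and Cldn7 belong to the wider biliary list too. Cldn5, the claudin of endothelium, passed at 0.62 ± 0.23 (adjusted p = 0.04, edgeR), but the call was lost when normal diet replicate 2 or 3, or CDAHFD replicate 2 or 3, was left out (adjusted p = 0.139, 0.0821, 0.143 and 0.153, edgeR). The gene that fell, Cldn12 (-0.57), was at -0.25 with total counts and -0.07 with hepatocyte markers, where it did not pass.

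Of 13 tested partners of keratin filaments 12 rose, and the plakophilin gene Pkp2 did not pass (0.05 ± 0.12), beside 28.5% of all tested genes higher. Ppl, a plakin that ties keratins to desmosomes, had the largest change of the plakins, 2.21 ± 0.13, from 17.6 ± 1.67 to 81.5 ± 12 CPM. All 4 genes of Mallory-Denk bodies, the keratin 8 and 18 aggregates of injured hepatocytes, rose: the crosslinking enzyme gene Tgm2 by 1.47 ± 0.14, Cryab by 1.30 ± 0.20, Hspb1 by 1.25 ± 0.19 and Sqstm1, the p62 gene, by 0.53 ± 0.16 (adjusted p = 0.0155, edgeR). The mesenchymal filament genes Vim and Des, which stellate cells and fibroblasts express, rose by 2.71 ± 0.17 and 1.36 ± 0.17. Without CDAHFD replicate 3 the list had 9 called members.

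Signals of the ductular reaction were divided. With TMM 10 of 18 tested genes rose and 4 fell, namely Egfr, Met, Yap1 and Amotl2, beside 28.5% and 23.5% of all genes. With total counts 13 rose and 1 fell, beside 44% and 8.07% of all genes, and with hepatocyte markers 13 and 1, beside 53.4% and 4.1%. Tnfrsf12a, the TWEAK receptor, rose by 1.88 ± 0.27 from 182, 107 and 198 counts to 884, 506 and 895, and its ligand gene Tnfsf12 by 1.43 ± 0.17. In the Notch pathway Hey1, a target, rose by 2.16 ± 0.40 from 4, 10 and 16 counts to 70, 51 and 52, the ligand gene Jag1 by 0.57 ± 0.15, and Notch2 and Hes1 did not pass (0.03 ± 0.13 and 0.20 ± 0.19). The growth factor receptor gene Egfr fell by 1.62 ± 0.25, from 811 ± 321 to 263 ± 52.7 CPM, and by 1.30 with total counts. Yap1, the Hippo pathway coactivator, was lower with TMM (-0.45 ± 0.10) but at 0.07 with hepatocyte markers. With TMM the YAP targets Ccn1 and Ccn2 rose by 0.88 ± 0.23 and 0.65 ± 0.17, and Wwtr1, another Hippo pathway gene, by 0.47 ± 0.13. Amotl2, of the same pathway, fell with TMM (-0.38 ± 0.10). With hepatocyte markers Ccn1, Ccn2, Wwtr1 and Amotl2 were at 1.40, 1.14, 0.98 and 0.11, so the Hippo genes did not move as 1 group. Itgb6, an integrin of activated ductular cells, had 0 counts in each normal diet library and 8, 7 and 11 on CDAHFD, under the filter.

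Markers of other cells that carry some of these genes were set beside them. Hepatocytes express Krt8 and Krt18: all 8 hepatocyte markers fell with TMM, beside 23.5% of all tested genes. With total counts Alb, Apob and Hnf4a did not pass, and with scaling to the list itself Alb and Apob lay above 0. With TMM the summed CPM of the 8 markers went from 115927 to 139446 on normal diet to 83977 to 94662 on CDAHFD. With libraries scaled to those 8 markers the members' median change was 2.47. That scaling uses the markers' summed counts, most of them from Alb (110500 of 139446 CPM in normal diet replicate 1). It therefore largely follows 1 gene, and Alb near 0 under it was fixed in advance. Mesothelial cells express keratins 7, 8, 18 and 19. Of 5 mesothelial markers 3 were tested and 2 rose (Wt1 by 3.11 ± 0.63 and Gpm6a), their summed CPM was 1.95 to 4.71 on normal diet and 2.61 to 4.56 on CDAHFD, and Msln (-1.14 ± 0.53) did not pass. Gallbladder and mucous genes summed to 0.245 to 3.93 CPM and 0.972 to 1.33 CPM, with 1 read of Muc5b in all. The 4 intestinal markers summed to 46.8 to 66.9 CPM on normal diet and 63.6 to 76.1 CPM on CDAHFD. Of them Fabp2 rose by 0.43 ± 0.14, Lgals4 did not pass (-0.12 ± 0.22), and Cdx2 had 0 counts in all 6 libraries. The 4 pancreatic acinar genes summed to at most 0.729 CPM. Macrophage (5 of 6), stellate cell (6 of 6) and T and NK cell (4 of 4) markers rose too. So did neutrophil (2 of 2) and B and plasma cell (2 of 4) markers, beside 28.5% of all tested genes. Macrophage sums were 260.05 to 326 CPM on normal diet and 943 to 1051 on CDAHFD. Of 5 endothelial markers 1 rose, under that share, and 4 did not pass (median change 0.10). Of the markers that rose, Wt1, the T cell gene Cd8a, S100a8 and S100a9 had fewer than 10 counts in each normal diet library. A rise was nearly the only call open to them. The part of these other cells in the results was not tested.

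Many genes shared the members' profile. Of 11847 other genes with a mean of at least 1 CPM, 1241 had a Pearson r over 0.95 with the members' median profile over the 6 libraries, as a description. Among the nearest by root mean square distance on log2 CPM were Zfp651 (0.114) and Glis3 (0.117), a zinc finger factor gene. Among the members Krt7 was closest to that profile (0.0797) and Cldn4 farthest (0.855).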

How the data were processed

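The 6 liver libraries were made with a stranded mRNA kit, per the labels' protocols. Alignment tool and build were STAR 2.7.11a and GRCm39, per the submitters' processing notes. For the counting tool, annotation, strand setting and gene lengths, nothing was found in the labels or headers. The deposited tables hold unnormalized read counts and TPM for each gene, both made by the authors. Columns beginning with CD were read as CDAHFD and with ND as normal diet.

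Genes were named from a GRCm38 table, which matched 51911 of 56847 IDs. edgeR 4.0.16 (R 4.3.3) kept 14215 genes (filterByExpr, minimum count 10), scaled by TMM and fitted diet by quasi-likelihood, with p-values adjusted by Benjamini-Hochberg over every tested gene and called under 0.05. CPM uses TMM-scaled totals. Ratios of members were tested on deposited TPM by exact permutation. In simulated counts of the diet comparison (14041 genes), the fit found 82 of the 100 2-fold and 98 of the 99 4-fold changes, and 10 of its 190 calls were false. The simulation gave every gene the same dispersion and changed few genes, in both directions. In the data 28.5% of genes rose and 23.5% fell, so these rates may not carry over. Libraries of one diet differed by a chi-square of 19.1 to 43.4 per degree of freedom, so none looked deposited more than once.

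The members and lists were chosen with earlier results of these data known. Named are all members, from each other list up to 4 called genes of largest change that averaged 1 CPM or more (the 2 most abundant where fewer than 2 were called), and the 3 genes nearest to the members' profile. Any other gene named was chosen after its values were seen. Results on a few genes are not reported here. Alternatives were RLE scaling, total counts, scaling to 8 hepatocyte markers, no filter, DESeq2 1.42.0, a stricter filter (1 CPM in 3 libraries), limma-voom, limma 3.58.1 on log2(TPM + 1) and log2(TPM + 0.1), a replicate block, and leaving out each library. How reads of near-identical copies or overlapping genes were shared out is not known here. Intervals and tests cover these libraries only. Genes under about 1 CPM rest on few reads. Cldn4, Elf3, Cldn7, Krt80, Mmp7, Wt1, Cd8a, S100a8 and S100a9 had fewer than 10 counts in each normal diet library. They passed the filter only through CDAHFD, so a rise was nearly the only call open to them.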

Additional observations from a re-analysis of the deposited data

How the results depend on the processing

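All 8 tested members stayed higher and past the threshold in each of the 16 alternatives. Cftr was tested in 5 of them. It passed with no filter and without normal diet replicate 3 (9 members called), with the limits given above for both calls. It did not pass without normal diet replicate 1, normal diet replicate 2 or CDAHFD replicate 1 (8 called). Over the alternatives the number called was 26 to 34 for the wider biliary list (29 as reported), 13 to 18 for the signals (14), 9 to 13 for the keratin partners (12) and 5 to 8 for the claudins (7). Total counts, hepatocyte markers and log2(TPM + 1) moved the median of all genes to 0.34, 0.52 and 0.29, and the members' median to 2.28, 2.47 and 1.88. On log2(TPM + 1) low genes changed less, Krt7 by 0.84 and Cldn4 by 1.77. Pairing by replicate number was not evident, though 3 libraries per diet cannot exclude it. Deviations of same-numbered libraries correlated at -0.05, 0.07 and 0.12, and not every library correlated best with its own number. With the replicate block 8 members were called, and Cldn5 no longer passed (adjusted p = 0.0526). Among the ratios, leaving out 1 library turned the sign of Krt7 over Krt8 (-0.05 to 0.34), Krt7 over Krt19 (-1.22 to 0.05), Krt23 over Krt18 (-0.82 to 0.42) and Epcam over Krt19 (-0.96 to 0.34). Low counts limit Krt7, Krt19, Cldn4 and Cftr most.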
